A study of Mus musculus with 15 samples.

Results

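The secreted frizzled-related protein genes Sfrp1, Sfrp2, Sfrp4, Sfrp5 and Frzb (also called Sfrp3), together with Wif1 (Wnt inhibitory factor 1), were followed through development of the mouse secondary palate. These 6 genes were chosen by name as a family of extracellular Wnt inhibitors, and all 6 were found among the 54232 genes of the deposited count table. The tissue was dissected palatal shelves of wild-type mice at E13.5, E14.5, E15.5 and E16.5 (embryonic days) and at P0 (the day of birth). Each stage had 3 libraries and each library came from the pooled palates of 3 embryos. No mutant or treated group entered, so the only factor compared was stage, and the spread given is the spread between pools. One of the aims stated for the series was to assess Wnt-dependent steps in palate formation.

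Wnt proteins are secreted signals that act through Frizzled receptors, and the palatal shelves need them to grow, elevate, fuse and form bone. Secreted frizzled-related proteins carry a cysteine-rich domain like the Wnt-binding part of a Frizzled receptor, but no membrane anchor, so they bind Wnt proteins outside the cell. Sfrp1, Sfrp2 and Sfrp5 form one branch of the family, and Frzb and Sfrp4 lie on another. Wif1 is not a relative of these proteins; it binds Wnt proteins through a WIF domain of its own.

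Library depth ranged from 21.5 M to 69 M counts with a median of 61 M, and each member had at least 133 counts in every library. The palate mesenchyme markers (Osr2, Pax9, Msx1, Shox2, Meox2, Tbx22, Barx1 and Mn1) were present at each stage, with summed levels from 449 to 614 CPM (counts scaled to library size) at E13.5 and from 190 to 274 CPM at P0. Some E14.5 libraries stood apart in genes foreign to the palate. The summed level of 6 choroid plexus markers was 1410, 30.6 and 778 CPM in E14.5 replicates 1, 2 and 3, against 27.0 to 489 CPM in the other 12 libraries. At P0 these markers summed to 59.5, 489 and 257 CPM in replicates 1, 2 and 3. A list of 6 Hox genes (Hoxa5, Hoxb5, Hoxb6, Hoxc6, Hoxc8 and Hoxb3) summed to 403, 126 and 39.7 CPM in E14.5 replicates 1, 2 and 3. In the same order, 8 neural genes (a list chosen after the values were seen) summed to 6290, 4240 and 2870 CPM. In the other 12 libraries the Hox genes summed to 0.0435 to 49.1 CPM and the neural genes to 919 to 3750 CPM, so E14.5 replicate 3 lay within the range of other stages on both lists. Replicates 1 and 3, the libraries high in choroid plexus markers, were left out together in an added fit. The library kept, replicate 2, lay above the other 12 libraries on both the Hox and the neural list. From E14.5 to E15.5 that fit called 589 of 24097 tested genes (2.44%), with 1 library left at E14.5 that is assumed to vary like the other stages.

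All positions are on GRCm38. Sfrp1 (ENSMUSG00000031548.7) lies on chromosome 8 from 23411502 to 23449632 on the plus strand. Sfrp2 (ENSMUSG00000027996.13) spans 83766321 to 83774316 on the plus strand of chromosome 3, where the antisense gene Gm26771 overlaps it. Counting used strand, and Gm26771 had 7 to 82 counts per library. Sfrp4 (ENSMUSG00000021319.7) lies on chromosome 13 from 19623104 to 19632994, plus strand. Sfrp5 (ENSMUSG00000018822.7) lies on chromosome 19 from 42197971 to 42202252 and Frzb (ENSMUSG00000027004.3) on chromosome 2 from 80411970 to 80447625, both on the minus strand. Wif1 (ENSMUSG00000020218.11) covers 121033960 to 121100650 of chromosome 10 on the plus strand. The 6 genes are thus on 6 different chromosomes.

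Promoter sequence is shown for Sfrp2, the member that fell most from E13.5 to P0, and for Sfrp5 and Wif1, which rose. The sequences come from RefSeq promoter windows of GRCm38.p6, which held 4 of the 6 members (Sfrp2, Sfrp5, Frzb and Wif1). Only bases before the start of the gene in the deposited table are printed, 5′ to 3′ on the strand of the gene. The windows are chr3:83766071-83766320 (plus strand) for Sfrp2, chr19:42202253-42202502 (minus strand) for Sfrp5 and chr10:121033754-121033959 (plus strand) for Wif1. Capitals mark matches on either strand to CTTTGA or CTTTGT (the core of TCF/LEF sites, where Wnt signalling acts on DNA), TGTGGT (the core of RUNX sites), GGGCGG (the GC box) or TATAAA (the TATA box).
Sfrp2: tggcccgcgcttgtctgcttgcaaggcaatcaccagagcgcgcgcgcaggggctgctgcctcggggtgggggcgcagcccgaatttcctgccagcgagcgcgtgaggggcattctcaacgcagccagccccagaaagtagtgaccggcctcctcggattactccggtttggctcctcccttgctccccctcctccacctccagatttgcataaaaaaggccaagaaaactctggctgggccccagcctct
Sfrp5: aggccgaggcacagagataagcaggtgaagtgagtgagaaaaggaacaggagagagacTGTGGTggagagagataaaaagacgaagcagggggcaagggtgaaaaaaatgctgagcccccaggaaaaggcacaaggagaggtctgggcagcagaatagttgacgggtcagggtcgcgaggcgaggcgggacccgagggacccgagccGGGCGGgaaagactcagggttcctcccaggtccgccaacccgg
Wif1: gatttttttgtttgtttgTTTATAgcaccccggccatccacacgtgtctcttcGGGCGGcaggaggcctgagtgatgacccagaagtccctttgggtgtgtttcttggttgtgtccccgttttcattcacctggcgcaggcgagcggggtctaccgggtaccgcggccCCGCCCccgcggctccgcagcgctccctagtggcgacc
The Sfrp2 window of 250 bases held none of these letters. The Sfrp5 window of 250 bases held TGTGGT starting 192 bases before the gene and GGGCGG 43 bases before it. In the 206 bases shown for Wif1, GGGCGG lay 153 bases before the gene and, on the other strand, 38 bases before it, and TATAAA lay on the other strand at 188 bases. Matches of this kind are common. Of 27025 genes with a window, 32.9% had GGGCGG, 14.2% TGTGGT, 16.5% CTTTGT, 14% CTTTGA and 13% TATAAA within 250 bases. Within 206 bases the shares were 25.7% for GGGCGG and 9.75% for TATAAA. The 3 windows were richer in G and C than the median window, with 63.6% (Sfrp2), 59.6% (Sfrp5) and 61.7% (Wif1) against medians of 52.0% over 250 bases and 51.5% over 206.

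The members differed widely in level, and their order changed between early and late stages. Levels of different genes are compared as RPKM, that is counts scaled to the exon length of the gene and to the library total. Sfrp2 was the most abundant member at every stage, at 189 RPKM at E13.5, 218 at E15.5 and 67.0 at P0. Sfrp1 came second at E13.5 with 64.2 RPKM, followed by Frzb (17.3), Wif1 (5.46), Sfrp5 (3.96) and Sfrp4 (0.592). At E13.5 the libraries of neighbours in this order overlapped for Wif1 and Sfrp5 alone, and at E14.5, where the order was the same, no neighbours overlapped. By P0 Wif1 had a mean of 39.1 RPKM and stood second, ahead of Sfrp1 (33.0), Sfrp5 (14.8), Frzb (8.49) and Sfrp4 (5.20). At this stage each neighbour overlapped the next: Wif1 was above Sfrp1 in 2 of 3 P0 libraries, and Sfrp5 above Frzb in 2 of 3. The order of the means at E16.5 was that of P0, and there only Frzb and Sfrp4 did not overlap.

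The mix of the 6 inhibitors moved from nearly all Sfrp1 and Sfrp2 to a broader set. Together these 2 genes held 90.3% ± 0.632 (SD, n = 3) of the summed RPKM at E13.5, 88.2% ± 2.00 at E14.5 and 82.2% ± 3.42 at E15.5. At E16.5 they held 60.7% ± 7.88, and at P0 60.8% ± 4.86. The share of Sfrp2 alone was 67.1% at E13.5 and 40.4% ± 1.95 at P0, while that of Sfrp1 was 23.2% and 20.3%. The share of Wif1 was 1.97% ± 0.811 at E13.5, 8.20% ± 3.10 at E15.5 and 22.7% ± 4.34 at P0. Sfrp5 held 1.45% at E13.5 and 8.57% ± 6.71 at P0, and Sfrp4 0.225% and 2.94%. Frzb kept between 4.62% and 6.95% of the sum at every stage. For each RPKM of Wif1 there were 38.8 ± 17.7 RPKM of Sfrp2 at E13.5, 9.03 ± 3.64 at E15.5 and 1.83 ± 0.386 at P0 (SD, n = 3). In single libraries this ratio lay between 24.5 and 58.5 at E13.5 and between 1.39 and 2.06 at P0. The sum of the 6 genes was 280 ± 72.1 RPKM at E13.5, 326 ± 24.9 at E15.5 and 168 ± 64.6 at P0. These are shares of RNA in whole tissue, in which fewer cells of a type and less RNA per cell cannot be told apart.

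**Figure D1:**
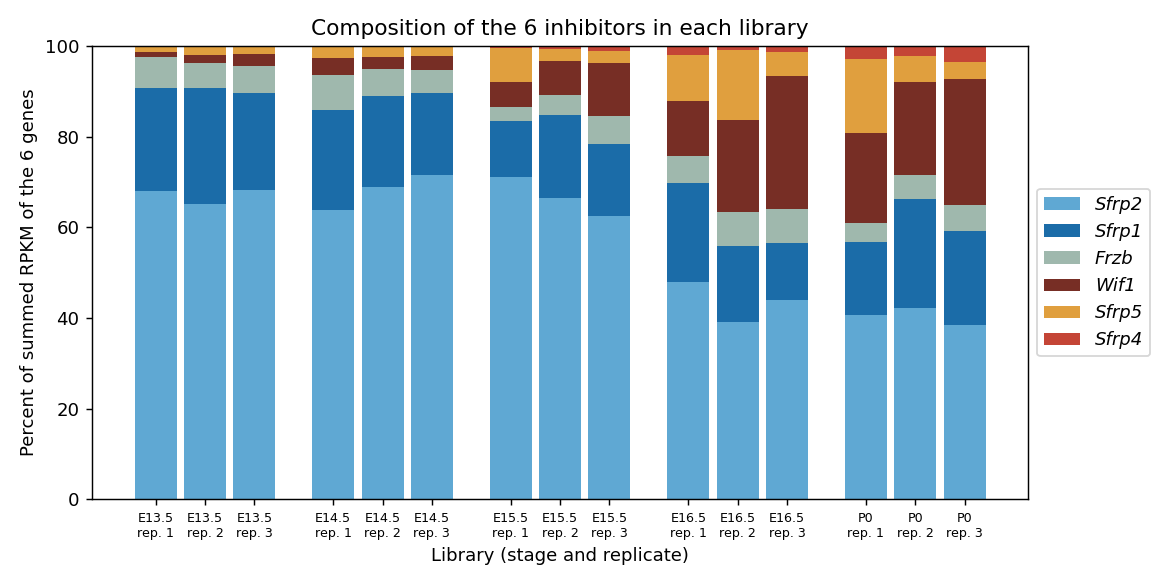
Share of each of the 6 genes (percent of their summed RPKM) in each of the 15 libraries, as stacked bars from 0 to 100%, grouped by stage. Sfrp1 and Sfrp2 together average 90.3% at E13.5 and 60.8% at P0, and the Wif1 segment grows from a mean of 1.97% to 22.7%.

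Across the 5 stages, 5 of the 6 members changed (adjusted p under 0.05, Benjamini-Hochberg, in the quasi-likelihood test of edgeR), in a data set in which 59.1% of all tested genes did. Sfrp1, Sfrp2, Sfrp4, Sfrp5 and Wif1 passed, and Frzb did not (adjusted p 0.262). The members' share is to be read against that background, since change over these stages was the rule among 22151 tested genes. The highest stage mean was 8.78 times the lowest for Sfrp4, 7.17 times for Wif1, 4.40 times for Sfrp5, 3.25 times for Sfrp2, 2.29 times for Sfrp1 and 2.04 times for Frzb. From here on levels are in CPM, scaled by the trimmed mean of M values, and fold changes are between stages for one gene.

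**Figure D2:**
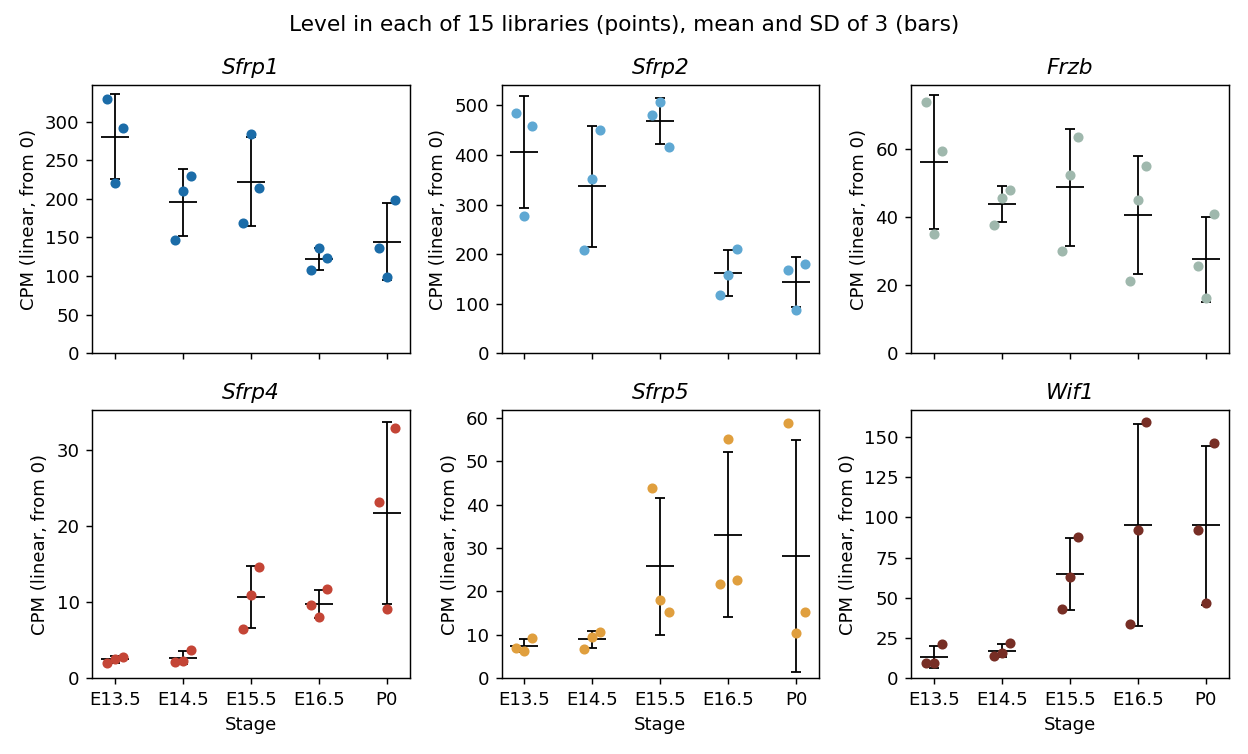
Level of each of the 6 genes in CPM on linear axes from 0, with one point per library, a horizontal bar for the stage mean and whiskers of 1 SD (n = 3). Sfrp1 and Sfrp2 are highest at E13.5 to E15.5, Sfrp4, Sfrp5 and Wif1 are low at E13.5 and E14.5, and the Frzb points overlap between stages.

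Sfrp2, a Wnt inhibitor widely made by embryonic mesenchyme that can also bind tolloid proteinases of the extracellular matrix, passed no test up to E15.5 and was lower afterwards. It was at 485, 277 and 458 CPM at E13.5, 208, 352 and 450 at E14.5, and 481, 507 and 417 at E15.5 (replicates 1, 2 and 3 in each case). At E16.5 it was at 117, 158 and 211 CPM, and at P0 at 167, 86.1 and 179. Every E16.5 library lay below every E15.5 library, and every P0 library below every E13.5 library. From E15.5 to E16.5 Sfrp2 fell from 468 ± 46.5 to 162 ± 47.1 CPM (SD over 3 libraries, log2 fold change -1.53, standard error (SE) of it 0.34, adjusted p 0.0492). It was the only member of 6 past the threshold in that contrast, where 1.41% of all genes passed, 1.03% as higher and 0.379% as lower. That call was close to the threshold. It was held in 4 of 15 refits with 1 library removed, and the adjusted p reached 0.207 without E16.5 replicate 1. The fold itself moved little, with log2 fold changes from -1.77 to -1.36 in those refits. From E13.5 to P0 Sfrp2 was 2.82-fold lower (log2 fold change -1.49, SE 0.34, adjusted p 0.00262), a call that all 22 alternatives kept.

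All 3 E16.5 libraries were nearly free of Y-chromosome transcripts, with a summed level of 0.151 to 0.332 CPM, so sex and stage cannot be told apart in contrasts with E16.5. Near-absent Y transcripts were also seen in E13.5 replicate 1 (0.401 CPM), E15.5 replicate 1 (0.337) and P0 replicate 2 (0.457). Among these libraries alone, Sfrp2 was at 485 CPM at E13.5, 481 at E15.5, 117 to 211 at E16.5 and 86.1 at P0. Sfrp1 in those libraries was at 329, 169, 108 to 136 and 99.1 CPM at the same stages. Of the rising members, Sfrp4 was at 2.01 CPM at E13.5, 6.47 at E15.5 and 9.09 at P0 in them. Wif1 was at 9.33, 42.9 and 47.0 CPM in the same order. Each of these Sfrp4 and Wif1 values was the lowest of its stage, while Sfrp1 and Sfrp2 were highest in that library at E13.5. E13.5, E15.5 and P0 had 1 such library each. The part of sex in these levels, in the folds between stages and in the differences between pools was not tested.

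Sfrp1, of the same branch as Sfrp2 and an inhibitor known to restrain bone formation, was likewise lower at P0 than at E13.5, by a smaller fold. It was at 329, 221 and 292 CPM at E13.5, 146, 210 and 230 at E14.5, and 169, 284 and 214 at E15.5. At E16.5 the libraries were at 108, 136 and 123 CPM, and at P0 at 136, 99.1 and 198. The E16.5 libraries lay below all earlier libraries, while P0 overlapped every stage except E13.5. The E16.5 mean was 1.81-fold below that of E15.5 (log2 fold change -0.86, SE 0.27), with an adjusted p of 0.104 in edgeR and 0.0347 in DESeq2. From E13.5 to P0 Sfrp1 fell 1.95-fold, from 281 ± 55.0 to 144 ± 49.9 CPM (SD over 3 libraries, log2 fold change -0.96, SE 0.27, adjusted p 0.00862). The highest adjusted p for that fall among 22 alternatives was 0.0461, without P0 replicate 2.

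Sfrp5, the third member of this branch and best known from gut endoderm and fat tissue, was scarce at first and very uneven between later libraries. It was at 7.02, 6.27 and 9.30 CPM at E13.5 and at 6.74, 9.46 and 10.7 at E14.5. From E15.5 on 1 library per stage was far above the others: the values were 43.9, 18.1 and 15.3 CPM at E15.5, 21.6, 55.0 and 22.7 at E16.5, and 58.9, 10.4 and 15.3 at P0. All E15.5 libraries were above all E14.5 libraries, yet the difference did not pass the test (log2 fold change 1.52, SE 0.61, adjusted p 0.0839 in edgeR). DESeq2 gave an adjusted p of 0.0319. Between E13.5 and P0 Sfrp5 rose 3.75-fold (log2 fold change 1.91, SE 0.62, adjusted p 0.0195), and the libraries did not overlap. That rise leaned on P0 replicate 1, without which the log2 fold change was 0.81 and the adjusted p 0.180. Without E13.5 replicates 1 or 2 the adjusted p was 0.0608 and 0.0665. The test across all stages (adjusted p 0.0248) also gave 0.0517 to 0.0633 without any 1 of E13.5 replicates 1 and 2 and E14.5 replicates 1 and 2, and 0.0955 without both E14.5 replicates 1 and 3.

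Frzb, first described as a cartilage-associated inhibitor, was the member that did not pass the test across the stages as a whole. It was at 73.9, 34.9 and 59.3 CPM at E13.5, 37.7, 45.5 and 47.9 at E14.5, and 30.0, 52.4 and 63.6 at E15.5. At E16.5 it was at 21.3, 44.9 and 55.1 CPM, and at P0 at 25.5, 16.1 and 40.9. The range of every stage overlapped that of every other stage, E13.5 and P0 included. From E13.5 to P0 the mean went from 56.0 ± 19.7 to 27.5 ± 12.5 CPM (SD over 3 libraries, log2 fold change -1.03, SE 0.41, adjusted p 0.0489). This call was held in 7 of 22 alternatives, and the adjusted p was 0.179 without P0 replicate 2. The 10 cartilage markers gave 0 calls between E14.5 and E15.5, with 2 of 10 at an unadjusted p under 0.05 in edgeR. Their median log2 fold change was -0.63, and -0.87 without E14.5 replicates 1 and 3. From E13.5 to P0 4 were higher and 3 lower, against 29.8% and 26.8% of all genes (median log2 fold change -1.01, against 0.03 over all genes).

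Sfrp4, which is required for normal cortical bone, was the scarcest member and had the largest rise. It was at 2.01, 2.56 and 2.85 CPM at E13.5, 2.07, 2.32 and 3.67 at E14.5, and 6.47, 10.9 and 14.6 at E15.5. At E16.5 it was at 9.56, 8.0 and 11.7 CPM, and at P0 at 23.2, 9.09 and 32.8. All libraries from E15.5 on lay above all libraries of the first stages. The rise from E14.5 to E15.5 was 3.96-fold (log2 fold change 1.99, SE 0.43, adjusted p 0.00680). It passed in all 15 refits with 1 library removed, where the highest adjusted p was 0.0404. Without both E14.5 replicates 1 and 3 the log2 fold change was 2.24 and the adjusted p 0.101. Against E13.5, where the choroid plexus markers summed to 33.8 to 139 CPM, E15.5 was 4.30-fold higher (log2 fold change 2.10, SE 0.43, adjusted p 0.00520), and all 22 alternatives kept that call. From E16.5 to P0 the mean went from 9.77 to 21.7 CPM without passing the test (log2 fold change 1.15, SE 0.42, adjusted p 0.295), with P0 replicate 2 inside the E16.5 range. From E13.5 to P0 Sfrp4 was 8.77-fold higher (log2 fold change 3.13, SE 0.45, adjusted p 0.000107), and all 22 alternatives kept the call.

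Wif1, which binds Wnt proteins through its own kind of domain and is known from osteoblasts, rose in the same contrasts as Sfrp4. It was at 9.33, 9.40 and 21.1 CPM at E13.5, 13.7, 15.9 and 22.0 at E14.5, and 42.9, 63.0 and 87.6 at E15.5. At E16.5 the libraries spread from 33.7 through 92.4 to 159 CPM, and at P0 they were at 92.1, 47.0 and 146. The E15.5 libraries and all later ones exceeded each library of E13.5 and E14.5. Wif1 rose 3.75-fold from E14.5 to E15.5 (log2 fold change 1.91, SE 0.55, adjusted p 0.0246). That call was lost without E14.5 replicate 1 (adjusted p 0.106), E14.5 replicate 2 (0.0802), E15.5 replicate 2 (0.0585) or E15.5 replicate 3 (0.0878). Without both E14.5 replicates 1 and 3 the log2 fold change was 2.06 and the adjusted p 0.233. From E13.5 to E15.5 the rise was 4.86-fold (log2 fold change 2.28, SE 0.56, adjusted p 0.0125), and it passed in 20 of 22 alternatives. From E13.5 to P0 it was 7.16-fold (log2 fold change 2.84, SE 0.57, adjusted p 0.00114), which all 22 alternatives kept. After E15.5 the stage means were 64.5 ± 22.4, 94.9 ± 62.4 and 95 ± 49.5 CPM (SD, n = 3), and neither later step passed the test.

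Set side by side, the neighbouring stages gave calls for Sfrp4 and Wif1 at E15.5 and for Sfrp2 at E16.5. Between E13.5 and E14.5 0 of 6 members passed in edgeR or in DESeq2, and 0 had an unadjusted p under 0.05 in edgeR. In that contrast 0.00903% of all genes passed in edgeR, while DESeq2 called 1000 genes. Intervals there were wide, and for Wif1 the 95% interval of the log2 fold change ran from -0.78 to 1.54. Between E14.5 and E15.5, when 26.1% of all genes passed in edgeR and 12.7% as higher, 2 of 6 members (Sfrp4 and Wif1) rose and 0 fell. DESeq2 added Sfrp5. Without E14.5 replicates 1 and 3, with 1 library left at E14.5, the log2 fold changes were 2.24 for Sfrp4 and 2.06 for Wif1. From E13.5 to E15.5 the same 2 members were higher, against 22.9% of all genes, 13.7% as higher and 9.18% as lower. The step from E15.5 to E16.5 had 1 member lower (Sfrp2). From E16.5 to P0 0 of 6 passed in edgeR or in DESeq2, with Sfrp4 alone at an unadjusted p under 0.05 in edgeR. In that contrast 0.352% of all genes passed in edgeR, 0.190% as higher and 0.163% as lower. From E13.5 to P0 all 6 passed, 3 higher and 3 lower, against 56.6% of all genes, 29.8% as higher and 26.8% as lower. The 3 that rose were those with the lowest levels at E13.5.

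**Figure D3:**
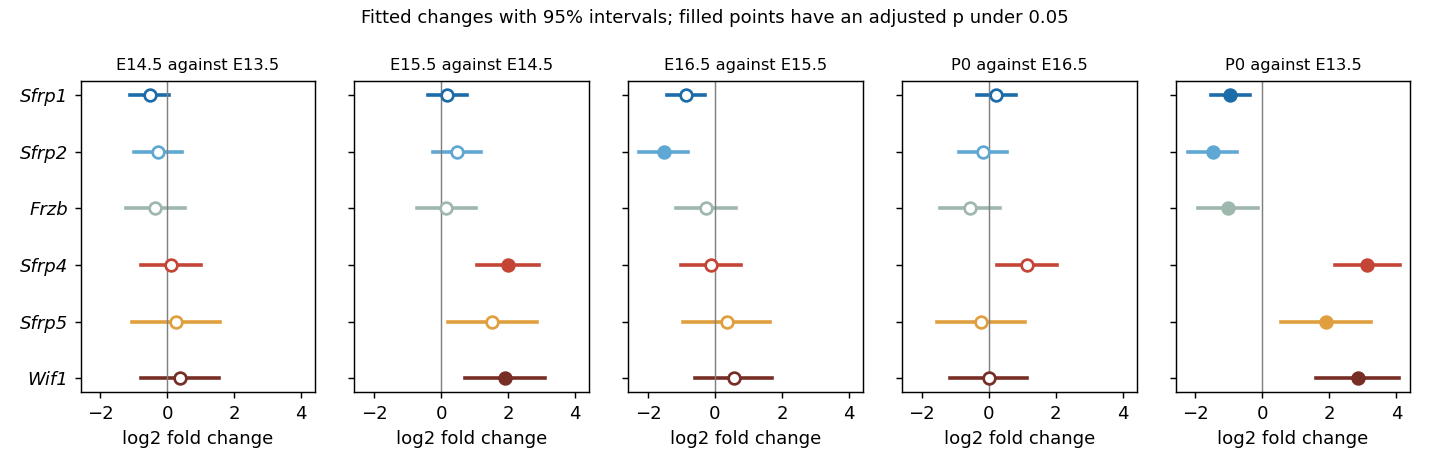
Fitted log2 fold change of each of the 6 genes in 5 stage contrasts, with 95% intervals as lines and filled points where edgeR's adjusted p was under 0.05. Filled points stand at Sfrp4 and Wif1 for E15.5 against E14.5, at Sfrp2 for E16.5 against E15.5 and at all 6 genes for P0 against E13.5.

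The other extracellular Wnt genes changed in both directions as well, and the values given for them in parentheses are log2 fold changes. Their counts are to be read against the shares over all tested genes in edgeR. These were 29.8% higher and 26.8% lower from E13.5 to P0, and 12.7% higher and 13.4% lower from E14.5 to E15.5. Of 18 tested Wnt ligands, 3 were higher and 3 lower at P0 than at E13.5 in edgeR (median log2 fold change 0.17, against 0.03 over all genes). Wnt10a, a ligand of ectoderm and tooth, rose (log2 fold change 2.33, SE 0.52, adjusted p 0.00230), as did Wnt4 (1.69, SE 0.37, adjusted p 0.00204). The largest falls were those of Wnt9b (-2.56, SE 0.66, adjusted p 0.00571), a ligand of facial ectoderm, and Wnt3 (-1.90, SE 0.42, adjusted p 0.00221). From E14.5 to E15.5 0 ligands rose and 4 fell, led by Wnt1 (-4.47, adjusted p 0.00444), a ligand of the neural tube, and Wnt9b (-3.17, adjusted p 0.00631), with 6 of 18 at an unadjusted p under 0.05. Wnt1 was scarce, at 0.851 ± 0.829 CPM at E14.5 and 0.0369 ± 0.0342 at E15.5 (SD, n = 3). The E15.5 mean was below the level of 3 counts in those libraries, so the size of that fall is uncertain. The neural genes, with 4 of 8 lower and 0 higher in that contrast (6 at an unadjusted p under 0.05), moved in the same direction, and their part in these falls was not tested. Without E14.5 replicates 1 and 3 the log2 fold changes were -2.53 for Wnt1 and -3.32 for Wnt9b. With 1 library left at E14.5, counts past the threshold in that fit are not compared with those of the full fit.

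Of the 10 Frizzled receptors, whose Wnt-binding domain the secreted proteins share, 6 were lower and 0 higher at P0 than at E13.5 in edgeR. Over all genes 26.8% were lower and 29.8% higher. Of the receptors 8 had an unadjusted p under 0.05 in edgeR (median log2 fold change -0.67). Fzd3 fell by 1.94 on the log2 scale (SE 0.39, adjusted p 0.00116) and Fzd2 by 1.73 (SE 0.25, adjusted p 0.000123). The summed level of the receptors was 653 to 739 CPM at E13.5 and 349 to 412 CPM at P0. Between E14.5 and E15.5 2 receptors rose, Fzd5 (1.08, adjusted p 0.0217) and Fzd8 (0.60, adjusted p 0.0453), and 2 fell, Fzd3 (-1.45, adjusted p 0.0174) and Fzd10 (-1.25, adjusted p 0.0106). Without E14.5 replicates 1 and 3 the log2 fold changes were 0.88 for Fzd5, 0.66 for Fzd8, -1.27 for Fzd3 and -0.86 for Fzd10.

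Among 12 other extracellular inhibitors, 3 were higher and 4 lower at P0 than at E13.5 (median -0.08), against 29.8% and 26.8% of all genes. Notum, which removes the lipid that Wnt proteins need, rose by a log2 fold change of 2.35 (SE 0.40, adjusted p 0.000381). Sost, which encodes sclerostin and blocks the LRP co-receptors, rose by 1.25 (SE 0.37, adjusted p 0.0121). Draxin, also an axon guidance cue (-2.41, SE 0.57, adjusted p 0.00315) and Dkk2 (-1.67, SE 0.28, adjusted p 0.000303) fell. From E14.5 to E15.5, 3 were higher and 2 lower (median 0.70), against 12.7% and 13.4% of all genes. Sost (1.72, adjusted p 0.00612) and Notum (1.24, adjusted p 0.0342) rose then, alongside Sfrp4 and Wif1, while Draxin (-3.08, adjusted p 0.00364) and Apcdd1 (-1.28, adjusted p 0.0149) fell. Without E14.5 replicates 1 and 3 the log2 fold changes were 1.87 for Sost, 1.24 for Notum, -2.82 for Draxin and -1.47 for Apcdd1.

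The 14 feedback targets, genes that beta-catenin signalling switches on in many tissues, were also divided. At P0 3 were higher and 6 lower than at E13.5 (median -0.28), against 29.8% and 26.8% of all genes. Tcf7, a transcription factor of the pathway, rose (1.69, SE 0.41, adjusted p 0.00378), and Notum is on this list too. Lef1 (-2.03, SE 0.46, adjusted p 0.00259), a factor of the same family as Tcf7, and Sp5 (-1.78) fell most. Between E14.5 and E15.5 2 rose (Tcf7, 1.52, adjusted p 0.0181 in edgeR, and Notum) and 1 fell (Apcdd1), against 12.7% and 13.4% of all genes. In the fit without E14.5 replicates 1 and 3 the log2 fold change of Tcf7 was 1.62. Of 5 tolloid proteinases and their enhancers, Pcolce (2.71, SE 0.33, adjusted p 3.74e-05) and Pcolce2 (0.92, adjusted p 0.0146), which speed the trimming of procollagen, were higher at P0 than at E13.5, and Tll1 was lower (-1.16, adjusted p 0.00105). At E15.5 the same 2 enhancers were already above E14.5, by 2.15 and 0.96. Without E14.5 replicates 1 and 3 the log2 fold changes were 2.04 for Pcolce and 1.37 for Pcolce2.

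**Figure D4:**
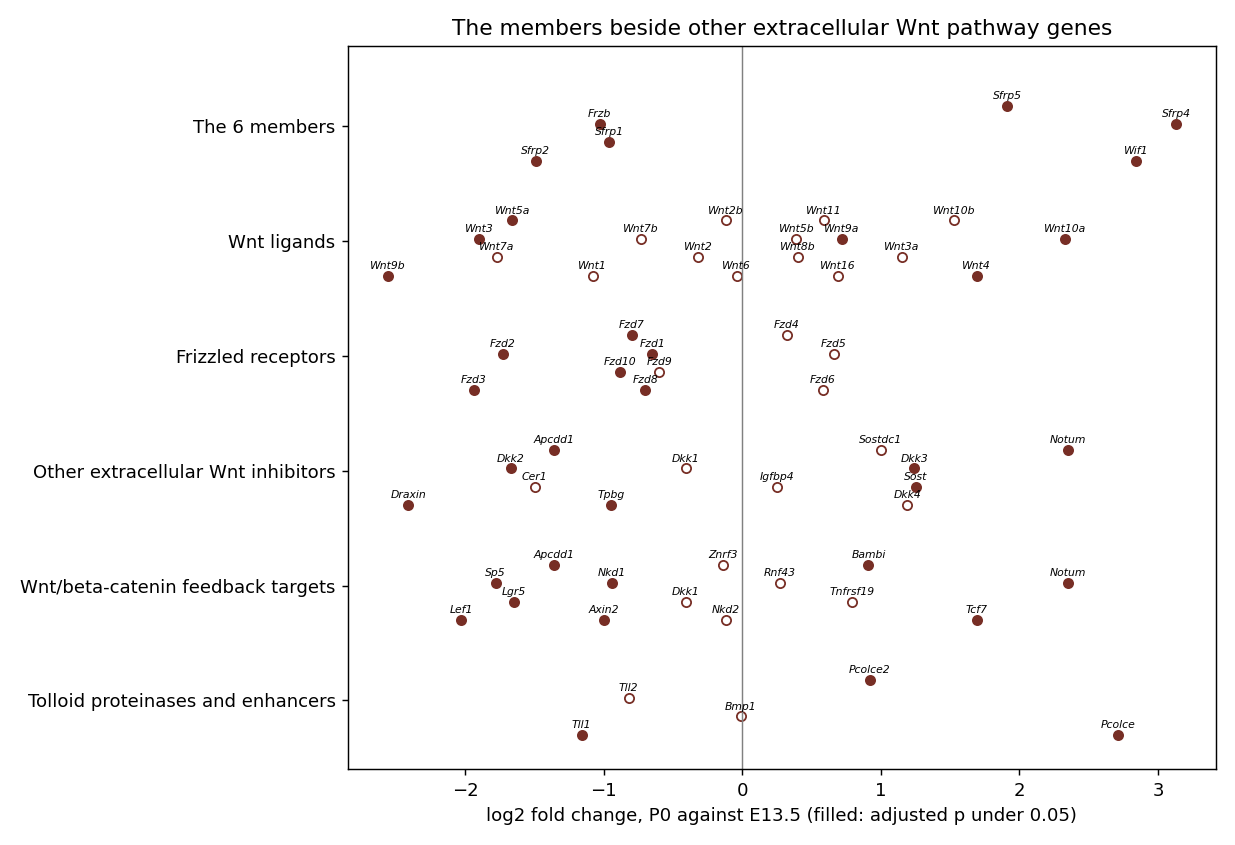
Log2 fold change from E13.5 to P0 of the 6 genes (top row) and of the tested genes of 5 Wnt pathway lists, 1 point per gene, filled where edgeR's adjusted p was under 0.05; the height within a row only separates the labels. Sfrp4 and Wif1 lie to the right of every gene of the other lists, and the 6 filled Frizzled receptors all lie left of 0.

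Tissue markers moved over the same stages. The 9 osteoblast markers summed to between 1030 and 2210 CPM at E14.5 and between 14200 and 16400 CPM at E15.5, with 8 of 9 higher (median log2 fold change 3.18) in the contrast in which Sfrp4 and Wif1 rose. In the same contrast 7 of 7 nasal and ciliated epithelium markers, 6 of 9 muscle markers, 3 of 5 tendon markers and 3 of 8 oral epithelium markers rose, and 0 of any of these lists fell. Over all genes 12.7% were higher and 13.4% lower in that contrast. Without E14.5 replicates 1 and 3 the median log2 fold change was 3.05 for osteoblast and 4.64 for nasal and ciliated epithelium. It was 1.41 for oral epithelium, 2.76 for muscle and 1.80 for tendon, against 0.10 over all genes. No osteoblast marker was at 0 in a whole stage. In the step of the Sfrp2 call, the muscle markers summed to 1870 to 5360 CPM at E15.5 and 12500 to 35700 CPM at E16.5. Of these 9 markers 1 was higher and 0 lower (median 1.90), with 6 at an unadjusted p under 0.05 in edgeR. Over all genes 1.03% were higher and 0.379% lower in that step. The palate mesenchyme markers had 0 calls there (median -0.58). Of the 8 palate mesenchyme markers 4 were lower and 0 higher at P0 than at E13.5 (median -1.35), while Sfrp1 and Sfrp2 fell. Over all genes 26.8% were lower and 29.8% higher. The part of these shifts in tissue make-up in the members' changes was not tested.

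Over the 15 libraries, which share depth and scaling between genes, the log2 levels of Sfrp4 and Wif1 ran together (Pearson r 0.92), as did those of Sfrp1 and Sfrp2 (0.87). As a description of the spread between pools, r was also taken of the deviations from stage means. Every pair among Sfrp1, Sfrp2, Sfrp4, Frzb and Wif1 had r from 0.56 (Sfrp2 and Sfrp4) to 0.83 (Frzb and Wif1). Between these lay 0.79 for Sfrp1 and Frzb, 0.78 for Sfrp1 and Sfrp2, 0.72 for Sfrp2 and Frzb and 0.70 for Sfrp4 and Wif1, among others. Frzb and Wif1, with r = -0.09 before stage means were removed, thus differed together from pool to pool within stages, while from E13.5 to P0 Frzb was lower and Wif1 higher. For Sfrp5 the deviations had r between 0.03 and 0.44 with those of the other members.

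The same deviations of Frzb followed those of the summed palate mesenchyme markers (r 0.93), with 0.80 for Wif1, 0.67 for Sfrp1, 0.61 for Sfrp2, 0.43 for Sfrp4 and -0.15 for Sfrp5. Those of Wif1 followed the summed tooth markers (r 0.92), 6 enamel and dentine genes that summed to no more than 22.0 CPM, with 0.85 for Frzb, 0.74 for Sfrp4, 0.60 for Sfrp2, 0.55 for Sfrp1 and -0.10 for Sfrp5. These markers were at 3.02, 4.23 and 9.53 CPM in the E15.5 libraries, 2.12, 4.56 and 15.5 at E16.5, and 7.57, 3.84 and 22.0 at P0, the same order as Wif1 at each of these stages. For Sfrp2 the list with the highest r was osteoblast (0.67). The osteoblast list had r of 0.55 with Sfrp5, 0.44 with Sfrp4, 0.44 with Wif1, 0.27 with Sfrp1 and 0.22 with Frzb. The muscle list had r of -0.62 with Frzb, -0.45 with Wif1, -0.38 with Sfrp4, -0.36 with Sfrp1, -0.10 with Sfrp2 and 0.33 with Sfrp5. For Sfrp5 the list with the highest r was tendon (0.73). The tendon markers summed to 362, 159 and 149 CPM at E15.5 and to 556, 330 and 228 at P0, and were highest in the library highest in Sfrp5 at these stages. At E16.5 they were at 405, 381 and 343 CPM, where Sfrp5 was highest in replicate 2. What these shared deviations come from was not tested.

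**Figure D5:**
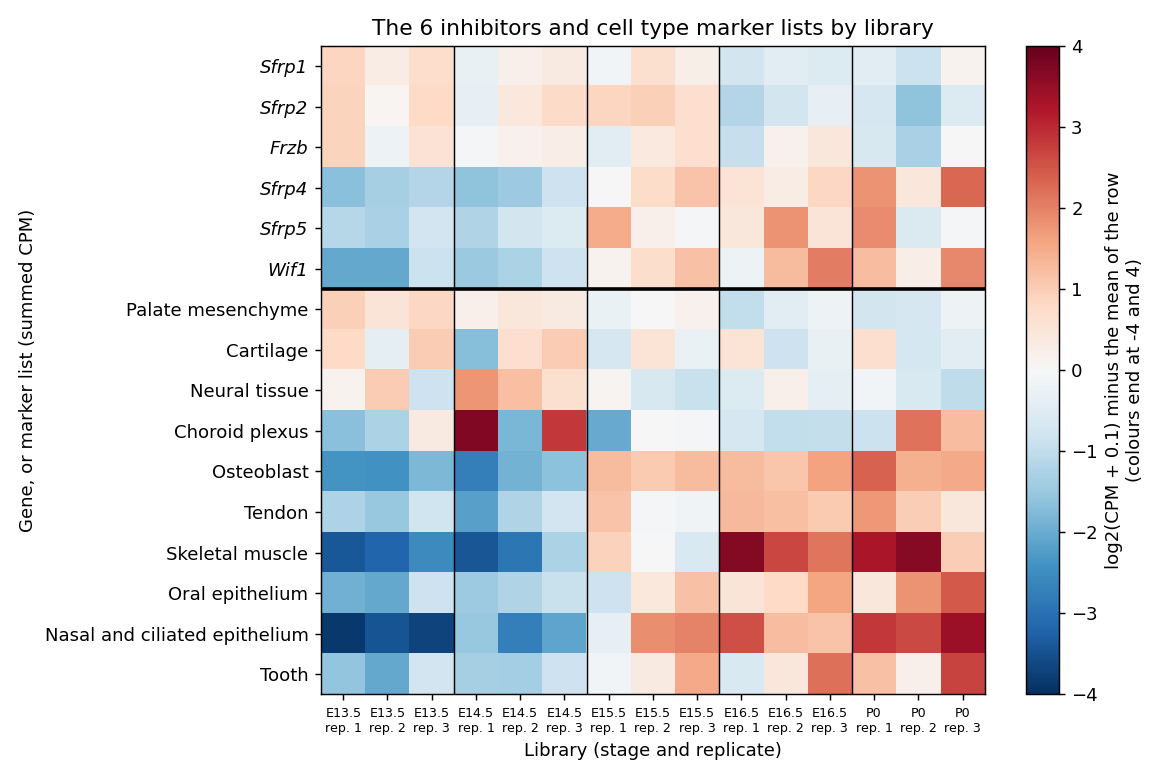
Heat map of the 6 genes (above the line) and of summed marker lists (below it) in the 15 libraries, as log2(CPM + 0.1) minus the mean of the row, with colours ending at -4 and 4. The osteoblast row is blue in all 3 libraries of E14.5 and red in all 3 of E15.5, and the oral and nasal epithelium rows are still blue in E15.5 replicate 1. The choroid plexus row is red in E14.5 replicates 1 and 3 and, less strongly, in P0 replicates 2 and 3.

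The genes most like each member in log2 CPM over the 15 libraries were found among 16519 genes with a mean of at least 1 CPM. Sfrp1 was close to Gsc (Pearson r 0.93) and Eya4 (0.93). For Sfrp2 they were Dnajc10 (0.94), Col26a1 (0.93) and Cdh11 (0.93). Frzb was nearest to Inhba (0.90), Gm9918 (0.89) and Gsc (0.89). On the rising side, Sfrp4 was close to A230050P20Rik (0.97) and Emb (0.96), and Wif1 was nearest to Tcf7 (0.97), Ptgfr (0.96) and Insc (0.96). Tcf7 was at 14.4 ± 4.62 CPM at E13.5, 17.9 ± 1.49 at E14.5 and 51.4 ± 9.94 at E15.5 (SD, n = 3). Sfrp5 was nearest to Slc9a9 (0.98), Htr1d (0.98) and Cdk15 (0.98), and Htr1d was at 0.366 ± 0.0531 CPM at E13.5 and 3.68 ± 2.88 at E16.5. With 15 libraries and a strong stage pattern such values are a description of these libraries, and ranking by Spearman's rho kept at most 1 of the 3 genes for each member.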

How the data were processed

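Palate RNA was sequenced in 15 libraries, 3 per stage. The authors' deposited table gives raw counts per gene, not normalized; per the file headers they were made with featureCounts 2.0.1 on GENCODE M18, counting read pairs on the reverse strand. The submitters' processing notes list HISAT2 2.2.1, Bowtie2, cutadapt 3.4, SAMtools 1.12 and the build mm10. The exon length in the same deposited table was used for RPKM. Symbols came from GENCODE M21 for 54079 genes, and all 6 members had identical positions there. Libraries of a stage differed by more than counting error (chi-square per degree of freedom 29.5 to 225). A level of 3 counts, a floor that covers counting error only, was 0.0435 to 0.14 CPM.

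Genes were filtered with edgeR 4.0.16 (R 4.3.3; filterByExpr by stage, minimum count 10), leaving 22151, all 6 members among them. Counts were scaled by the trimmed mean of M values and fitted with 1 coefficient per stage over all 15 libraries. Contrasts used the quasi-likelihood F test, and adjusted p values are Benjamini-Hochberg over all tested genes, with a threshold of 0.05. The fit was tested on simulated data. Log2 CPM for correlations used a prior count of 2.

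The members, pathway lists and marker lists were chosen with earlier results of these data known. The neural list, and the fit without E14.5 replicates 1 and 3, were chosen after seeing the data. In the text, members are named in every contrast, each pathway list by up to 2 of the largest rises and 2 of the largest falls past the threshold, and each member by its 3 most correlated genes, some of which are not reported here. Alternatives were DESeq2 1.42.0, its size factors, upper-quartile scaling, 2 other filters, fits to the 6 libraries of a contrast, a block for the replicate number, and leaving out each library.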

Additional observations from a re-analysis of the deposited data

How the results depend on the processing

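The falls of Sfrp1 and Sfrp2 and the rises of Sfrp4 and Wif1 from E13.5 to P0 passed in all 22 alternatives. The count of members past the threshold, leaving out 1 library at a time, was 4 to 5 across the stages (5 with all libraries), 1 to 3 from E14.5 to E15.5 (2), 0 to 1 from E15.5 to E16.5 (1), 4 to 6 from E13.5 to P0 (6) and 1 to 3 from E13.5 to E15.5 (2). From E15.5 to E16.5 it was 2 with DESeq2, 0 with upper-quartile scaling and 0 with the 6 libraries of the contrast alone. From E14.5 to E15.5 the fit without E14.5 replicates 1 and 3, with 1 library left at E14.5, had log2 fold changes of 2.24 for Sfrp4 and 2.06 for Wif1. With upper-quartile scaling the median over all tested genes (log2 fold change) was 0.16 in place of 0.03 between E14.5 and E15.5, and 0.10 in place of 0.03 between E13.5 and P0. Log2 fold changes that turned direction were all uncalled. Leaving out 1 library, they ranged from -0.17 to 0.28 for Sfrp4 from E13.5 to E14.5 (-0.11 without E14.5 replicates 1 and 3), from -0.03 to 0.34 for Sfrp1 and -0.09 to 0.40 for Frzb from E14.5 to E15.5, from -0.38 to 0.17 for Sfrp4, -0.22 to 0.99 for Sfrp5, -0.56 to 0.03 for Frzb and -0.03 to 0.95 for Wif1 from E15.5 to E16.5, from -0.07 to 0.43 for Sfrp1, -0.37 to 0.08 for Sfrp2 and -1.35 to 0.35 for Sfrp5 from E16.5 to P0, and from -0.01 to 0.35 for Sfrp2 and -0.46 to 0.04 for Frzb from E13.5 to E15.5. Their causes were not tested. Deviations of same-numbered libraries had a mean correlation of 0.06, over 0.1 in 10 of 30 pairs. Other-numbered pairs had a mean of -0.03, over 0.1 in 18 of 60 pairs. Of the 15 libraries 6 were closest to their own number. These values do not settle whether replicate numbers pair the samples. With the replicate block the counts of members past the threshold were 5 across the stages and 0, 2, 1, 0, 6 and 2 in the 6 contrasts, as without it. Over all genes the block moved the count from 2 to 135 between E13.5 and E14.5 and from 78 to 35 between E16.5 and P0. Each member had at least 133 counts in every library, so the spread between the 3 libraries of a stage, more than counting error, set the precision.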

Other observations

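The other marker lists were counted in the same contrasts. Over all genes 12.7% were higher and 13.4% lower from E14.5 to E15.5, and 29.8% higher and 26.8% lower from E13.5 to P0. Of 6 dermal and loose fibroblast markers, 4 were higher and 0 lower at E15.5 than at E14.5 in edgeR (median log2 fold change 1.11), and 5 were higher and 1 lower at P0 than at E13.5 (median 1.52). Of 6 erythroid markers, 0 were higher and 1 lower from E14.5 to E15.5 and likewise from E13.5 to P0, with 2 at an unadjusted p under 0.05 in each. Of 5 endothelial markers, 0 passed from E14.5 to E15.5, with 0 at an unadjusted p under 0.05, and 2 were higher from E13.5 to P0. All 4 tested tooth markers were higher at P0 than at E13.5 (median 6.02), and 1 of 4 was higher at E15.5 than at E14.5. At E13.5 Amelx (0.00478 CPM), Enam (0.00947) and Odam (0.0339) were below the floor of 3 counts, so the median of 6.02 rests on near-zero levels. Ambn, at 1.04 CPM at E13.5, rose by a log2 fold change of 1.95 to P0. Of 5 tested Hox genes 4 were lower at E15.5 than at E14.5 (median -6.54), and of 6 choroid plexus markers 2 were lower and 0 higher (3 at an unadjusted p under 0.05, median -1.90). Without E14.5 replicates 1 and 3 the step from E14.5 to E15.5 had median log2 fold changes of 1.64 for the dermal and 2.21 for the tooth markers. The medians were -4.51 for the Hox genes and 1.17 for the choroid plexus markers, with 6 genes tested in each of these lists.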
